A study of Mus musculus with 9 samples.

Results

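Glycolysis and the pentose phosphate pathway were followed here in a mouse lung cancer cell line that had grown in the lung, under the skin or in a dish. The genes encode the glucose transporters, the glycolytic enzymes, the lactate dehydrogenases and lactate transporters, and the enzymes of the pentose phosphate pathway. They were chosen by gene symbol, and 28 of the 32 symbols on the list had a feature on the array, out of 19505 genes measured. Eno1, Gpi1, Tkt and G6pdx had no feature with that symbol and were not analysed here. All samples were GFP-labelled 3LL cells, the Lewis lung carcinoma (LLC) line of C57/BL6 mice, and each of the 3 groups had 3 samples with 1 array each. In the lung group, GFP+ cells were isolated 7 days after transplantation into the lung, a setting that the series calls BLM lungs without spelling out the abbreviation. In the subcutaneous group, GFP+ cells were isolated 7 days after transplantation under the skin. In the dish group, the cells had been in monolayer culture for 7 days. All 3 groups are therefore 1 cell line, and neither transplanted group has a matching sample of host tissue here. The labels do not state whether samples of the same group were separate animals or cultures, so the p-values reflect the spread among these arrays, and part of it may be technical.

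Glycolysis splits glucose into pyruvate and yields ATP and NADH. Tumour cells often run it quickly and reduce the pyruvate to lactate, which they export. The pentose phosphate pathway branches off at glucose 6-phosphate: its oxidative arm makes NADPH, and its non-oxidative arm trades sugar carbons with glycolysis and supplies ribose for nucleotides. Many glycolytic genes are known targets of the hypoxia-inducible factor HIF-1, which binds short hypoxia-response elements near their start sites.

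Each value below is the log2 signal that the authors deposited for 1 array, and a difference of 1 on that scale is a doubling. Signals of different genes come from different probes, so only the same gene is compared between groups. The 90th percentile of the 5222 negative controls, 7.20 to 7.73 across the 9 arrays, served as the edge of background. Of the 28 genes, 19 were above it on all 9 arrays, 3 on some arrays (Hk1, Eno3 and Rpia) and 6 on none (Slc2a3, Pfkm, Aldoc, Eno2, Ldhb and Fbp1). RNA integrity numbers (RIN) ran from 7.5 to 8.6. Markers of other cell types moved with the groups. The mean signal of 5 fibroblast genes was 6.55 to 7.35 in lung cells, 9.33 to 9.81 in subcutaneous cells and 5.56 to 5.65 in dish cells, and 1, 3 and 0 of the 5 were above background on all arrays of those groups. The mean of 6 alveolar type II genes was 7.57 to 9.30, 4.86 to 5.24 and 4.87 to 5.25 in the same order, and 3, 1 and 0 of the 6 were above background on all arrays. The mean of 4 airway secretory genes was 5.03 to 10.6 in lung cells, highest on lung array 3, against 4.58 to 5.08 in subcutaneous cells and 4.26 to 4.68 in dish cells. The mean of 5 monocyte and macrophage genes was 5.603 to 6.53 in lung cells, 5.41 to 5.82 in subcutaneous cells and 5.21 to 5.55 in dish cells. Cd14 was above background on all 9 arrays, and Lyz2 was called higher in lung cells than in subcutaneous cells (2.33, adjusted p = 0.045) and dish cells (2.93, adjusted p = 0.0274), with 9.68, 6.32 and 10.04 on the lung arrays. The mean of 6 skeletal muscle genes was 5.02 to 5.24 in lung cells, 5.15 to 5.35 in subcutaneous cells and 4.72 to 4.97 in dish cells. Of these, Mylpf was above background in lung cells only, and was called higher there than in subcutaneous cells (1.00, adjusted p = 0.0474) and dish cells (2.09, adjusted p = 0.00208). The rest of this list (Acta1, Ckm, Myh4, Tnnt3 and Mb) went the other way in lung minus subcutaneous cells. These differences ran from -0.55 to -0.06 and were not called, and these genes were in background on all arrays. No gene of the endothelial, neutrophil, T and NK cell, B cell, adipocyte, keratinocyte or erythroid lists was above background on any array. The part of host RNA in the differences below was not tested, and in such bulk samples fewer cells of a type and less RNA per cell cannot be told apart.

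**Figure D1:**
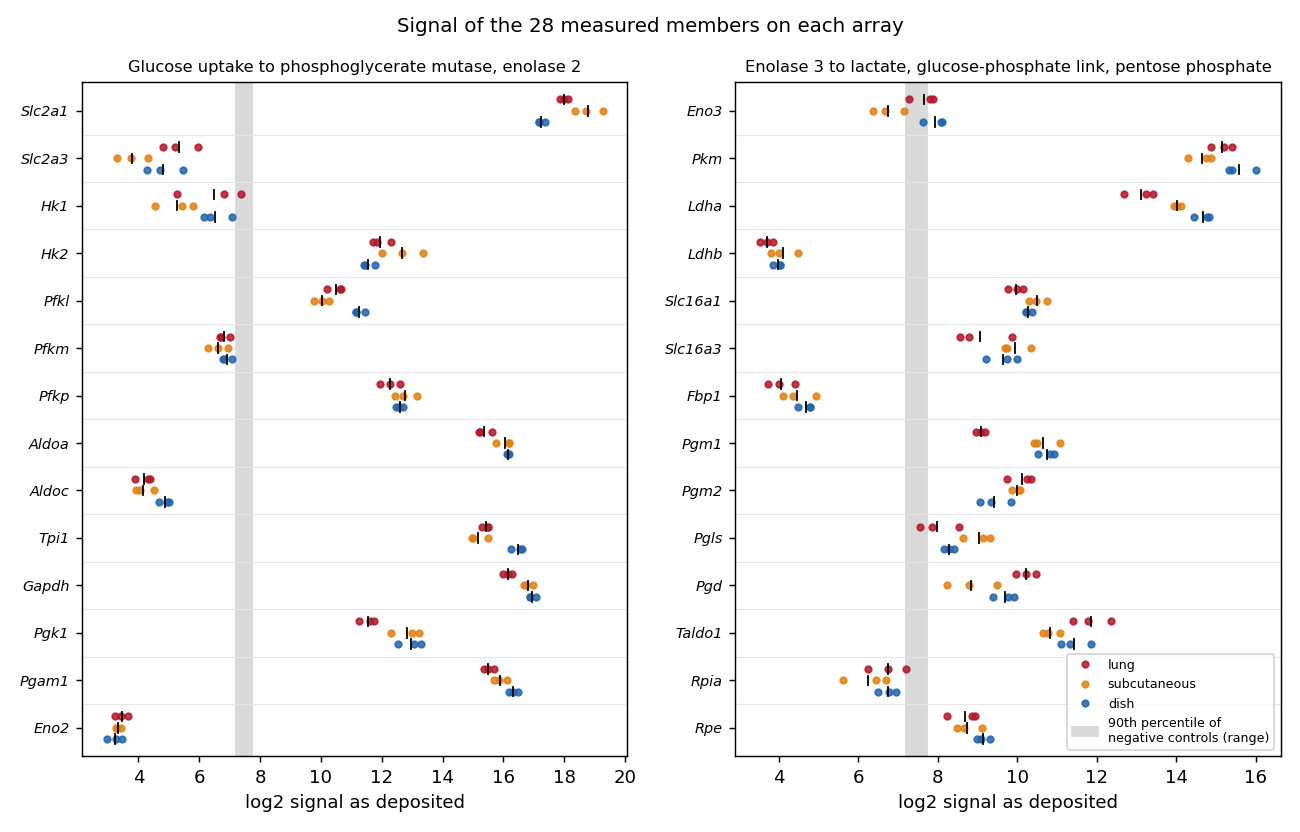
Log2 signal (x axis) of the 28 glycolysis and pentose phosphate genes on each of the 9 arrays. For each gene, lung cells are in the top row, subcutaneous cells in the middle and dish cells at the bottom. Black ticks are group means (n = 3) and the grey band is the range of the 90th percentile of the negative controls (7.20 to 7.73). Pgk1 lay between 11.25 and 11.74 in lung cells, below all 6 other arrays, while Slc2a1 was highest in subcutaneous cells (18.36 to 19.26).

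Lung cells had lower signals than subcutaneous cells for Pgk1, Pgm1, Ldha and Pgls, and higher ones for Pgd and Taldo1. Eno3 and Slc2a3 were also called higher, but Eno3 was in background on all subcutaneous arrays and Slc2a3 on all 9 arrays. Against dish cells, lung cells were lower for Pgm1, Ldha, Pgk1, Tpi1 and Gapdh, and no member was called higher. Subcutaneous cells, set against dish cells, were higher for Slc2a1 and Hk2 and lower for Tpi1, Pfkl, Eno3 and Pkm. A gene was called where limma gave an adjusted p under 0.05 (Benjamini-Hochberg over all 19505 genes). For lung against subcutaneous cells, 4 members were called higher and 4 lower, which is 28.6% of the 28, beside 15% of all genes (9.21% higher and 5.79% lower). For lung against dish cells, 0 were called higher and 5 lower, or 17.9% of the members lower beside 1.97% of all genes lower and 6.78% in either direction; 4.81% of all genes were called higher. For subcutaneous against dish cells, 2 were called higher and 4 lower, or 21.4%, beside 12.9% of all genes (6.41% higher and 6.47% lower). The members' median difference was -0.23, -0.30 and -0.25 in these 3 comparisons, beside -0.07, -0.07 and -0.01 over all genes. The lung comparisons share their lung arrays and the comparisons with the dish share their dish arrays, so the 3 sets of calls are not independent. The scaling matters for both lung comparisons: over all genes, 61.4% of the calls against subcutaneous cells and 71% of those against dish cells were higher in lung cells, but 27.7% and 24% were after every array was set to a common upper quartile. On that scale 2 members were called higher and 10 lower against subcutaneous cells, beside 1124 and 2936 of the 19505 genes. The members' median there was -0.53, beside -0.38 over all genes. Against dish cells 0 members were called higher and 10 lower, beside 565 and 1787 genes, with a median of -0.64 beside -0.41. Slc2a3 among the higher calls was in background on all arrays. So were Aldoc and Fbp1 among the lower calls against dish cells.

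Brighter genes are called more often, so the 19 members above background on all 9 arrays were also set beside the 4804 genes for which this held, a choice that leaves out any gene that dropped into background. In lung against subcutaneous cells, 6 of the 19 were called (31.6%, 2 higher and 4 lower), beside 30% of those genes (18.8% higher and 11.2% lower). In subcutaneous against dish cells, 5 were called (26.3%, 2 higher and 3 lower), beside 28.1% (14.1% in each direction). In either direction these shares lay near their background. By direction, the members in lung against subcutaneous cells were more often lower and less often higher than those genes, with a median of -0.53 beside 0.16; the medians were -0.45 beside 0.11 in lung against dish and -0.11 beside -0.03 in subcutaneous against dish cells. In lung against dish cells, 5 of the 19 were called lower (26.3%), beside 3.68% of those genes called lower, and 0 were called higher, beside 9.47% (13.2% in either direction). All 3 lung arrays lay below all 3 dish arrays for 13 of the 28 members (46.4%), as they did for 15% of all genes, and above them for 2 members (7.14%), as for 13.4% of all genes. For lung against subcutaneous cells, 9 members lay wholly lower (32.1%, beside 16.8% of all genes) and 4 wholly higher (14.3%, beside 15.8%). For subcutaneous against dish cells, 9 lay wholly lower (32.1%, beside 15.1%) and 4 wholly higher (14.3%, beside 14.2%).

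**Figure D2:**
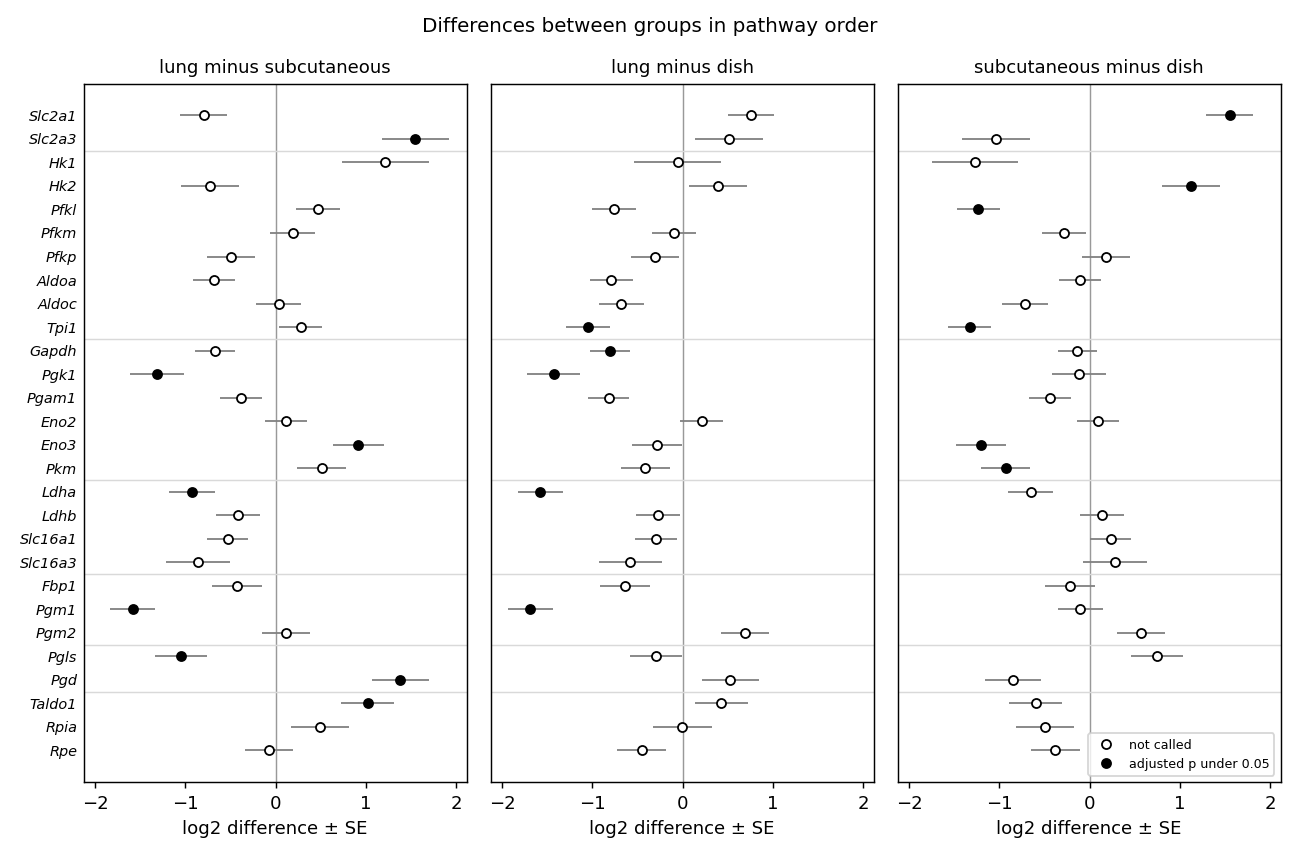
Difference in log2 signal with its standard error for each member in pathway order, in 3 panels: lung minus subcutaneous, lung minus dish and subcutaneous minus dish (3 arrays a group); filled points have an adjusted p under 0.05 in limma. Filled points number 8, 5 and 6, and in the lung minus dish panel all 5 lie below 0.

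The promoters of 7 called members are shown because the list holds classic HIF-1 targets and genes that moved the other way. Each run is the 250 bases before the RefSeq transcription start (mouse build GRCm38.p6), 5′ to 3′ on the strand of the gene. Capitals mark the core of a hypoxia-response element, ACGTG or GCGTG, read on either strand, so that CACGT or CACGC in capitals is a match on the opposite strand. The windows are chrX:106186850-106187099 (plus strand) for Pgk1, chr7:46845554-46845803 (plus) for Ldha, chr4:99929201-99929450 (plus) for Pgm1, chr4:119108495-119108744 (plus) for Slc2a1 and chr6:82774455-82774704 (minus) for Hk2. Those of Pgd and Taldo1 are chr4:149166706-149166955 (minus) and chr7:141391910-141392159 (plus).
Pgk1: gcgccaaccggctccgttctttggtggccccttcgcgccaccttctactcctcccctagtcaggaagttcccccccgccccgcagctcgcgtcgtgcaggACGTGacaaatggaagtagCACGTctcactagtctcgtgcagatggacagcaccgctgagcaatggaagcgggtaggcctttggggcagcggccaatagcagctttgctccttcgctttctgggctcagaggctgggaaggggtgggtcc
Ldha: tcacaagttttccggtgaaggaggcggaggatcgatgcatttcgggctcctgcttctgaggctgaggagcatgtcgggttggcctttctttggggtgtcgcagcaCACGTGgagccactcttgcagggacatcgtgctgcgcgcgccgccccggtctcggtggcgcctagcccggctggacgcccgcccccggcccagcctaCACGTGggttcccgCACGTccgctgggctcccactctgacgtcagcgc
Pgm1: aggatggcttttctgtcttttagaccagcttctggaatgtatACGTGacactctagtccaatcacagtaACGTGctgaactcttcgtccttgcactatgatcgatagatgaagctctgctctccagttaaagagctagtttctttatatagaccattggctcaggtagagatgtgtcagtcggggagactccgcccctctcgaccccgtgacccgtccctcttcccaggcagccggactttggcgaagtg
Slc2a1: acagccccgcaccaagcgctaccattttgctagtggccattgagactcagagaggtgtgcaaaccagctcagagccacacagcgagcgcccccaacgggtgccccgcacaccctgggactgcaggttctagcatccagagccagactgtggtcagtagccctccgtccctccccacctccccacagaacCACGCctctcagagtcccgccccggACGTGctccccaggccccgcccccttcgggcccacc
Hk2: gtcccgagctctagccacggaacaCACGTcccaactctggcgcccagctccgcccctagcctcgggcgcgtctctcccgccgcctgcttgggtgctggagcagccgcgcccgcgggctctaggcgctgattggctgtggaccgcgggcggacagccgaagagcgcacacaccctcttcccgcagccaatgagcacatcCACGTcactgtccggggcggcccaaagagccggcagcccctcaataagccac
Pgd: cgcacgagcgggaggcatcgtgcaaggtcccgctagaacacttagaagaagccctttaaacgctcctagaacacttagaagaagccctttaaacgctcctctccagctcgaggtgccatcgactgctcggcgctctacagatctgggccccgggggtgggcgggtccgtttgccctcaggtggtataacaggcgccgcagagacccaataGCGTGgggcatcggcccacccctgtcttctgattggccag
Taldo1: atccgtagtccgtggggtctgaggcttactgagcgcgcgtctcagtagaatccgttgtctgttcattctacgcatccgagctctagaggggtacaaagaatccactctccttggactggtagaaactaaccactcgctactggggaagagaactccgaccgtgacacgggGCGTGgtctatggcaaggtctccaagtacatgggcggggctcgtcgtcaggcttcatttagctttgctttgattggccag
Pgk1 has ACGTG on the gene strand at -150 to -146 and on the opposite strand at -131 to -127, counted from the start site. Ldha has 5 matches to ACGTG, and 4 of them are the strand pairs of 2 palindromic CACGTG motifs at -145 to -140 and -48 to -43. Pgm1 has 2 matches at -208 to -204 and -181 to -177. Slc2a1 has ACGTG at -36 to -32 and GCGTG on the opposite strand at -61 to -57, and Hk2 has 2 matches on the opposite strand. Pgd and Taldo1 hold only GCGTG, with 1 match each at -40 to -36 and -80 to -76.

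Of the 28 members, 27 had such a promoter window, Slc2a3 being the exception. ACGTG, on either strand, was present in 10 of the 27 (37.0%), and 16.6% of 32851 mouse promoter windows of that length hold it. Each member has 1 window, at its outermost annotated start, while the 32851 windows belong to 27025 genes, some with several windows. The windows were not matched for base composition, so the shares below are not a like-for-like comparison. Either core was present in 20 of the 27 (74.1%), beside 38.6% of all windows. TGACNNNGC, the core of the antioxidant response element that NRF2 binds, was found in 3 windows (Slc16a1, Fbp1 and Pgm2), and 10.2% of all windows have it. CACGTG, the E-box bound by MYC, which overlaps ACGTG, was found in 3 windows (Pfkm, Ldha and Slc16a1), and 6.02% of all windows have it. A match is a description of letters and not a binding site. The 10 genes with ACGTG were Slc2a1, Hk2, Pfkm, Pgk1, Pgam1, Ldha, Slc16a1, Slc16a3, Pgm1 and Pgm2. The 17 other members are not free of the core. Pfkl, Pfkp, Aldoc, Gapdh, Eno3, Ldhb, Pgls, Pgd, Taldo1 and Rpia hold GCGTG, so the split below is by ACGTG alone. In lung against subcutaneous cells, 8 of these 10 had a negative difference (median -0.76, 0 called higher and 3 lower), and 7 of the 17 other members did (median 0.12, 3 called higher and 1 lower). In lung against dish cells, 7 of the 10 were negative (median -0.44, 3 called lower), and 14 of the 17 were (median -0.31, 2 called lower). In subcutaneous against dish cells, 5 of the 10 were negative (median 0.07, 2 called higher), and 13 of the 17 were (median -0.49, 4 called lower). These counts and medians include genes in background on all arrays, Pfkm among the 10 and Aldoc, Eno2, Ldhb and Fbp1 among the 17. Over all genes the medians of the 3 comparisons were -0.07, -0.07 and -0.01 in that order. The shares of all genes called higher and lower were 9.21% and 5.79%, 4.81% and 1.97%, and 6.41% and 6.47% in the same order. The split was made with these differences known and was not tested.

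**Figure D3:**
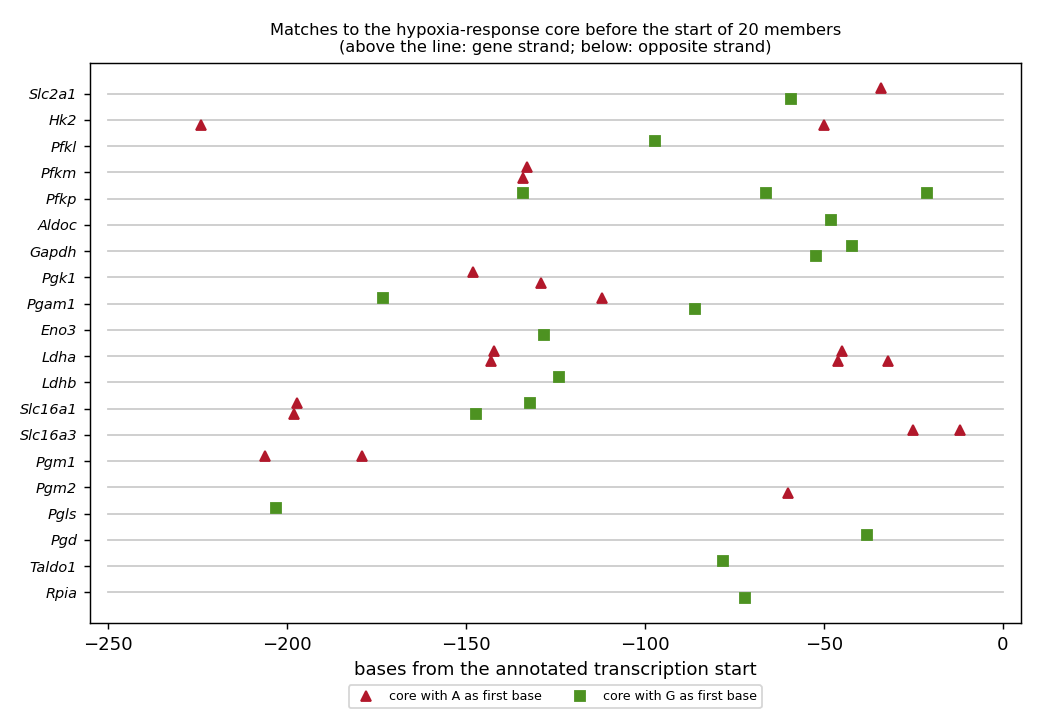
Matches to the hypoxia-response core in the 250 bases before the start site of the 20 members that hold one; the x axis is the distance in bases from the start site, triangles are ACGTG, squares are GCGTG, and marks above the line are on the gene strand. Ldha has 5 triangles, while Pgd and Taldo1 have 1 square each.

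Glucose enters the cell through facilitative transporters. Slc2a1, which encodes the widespread glucose transporter GLUT1, had signals of 18.13, 17.98 and 17.86 in lung cells, 18.36, 19.26 and 18.72 in subcutaneous cells and 17.37, 17.16 and 17.17 in dish cells. The 3 groups did not overlap, with subcutaneous cells highest and dish cells lowest. These signals lie close to the top of the array's range (19.1 to 19.7), where differences may be compressed. Subcutaneous cells exceeded dish cells by 1.55 ± 0.26 (SE), or 2.93-fold (adjusted p = 0.00149). Lung cells differed from subcutaneous cells by -0.79 ± 0.26 (adjusted p = 0.0567) and from dish cells by 0.76 ± 0.26 (adjusted p = 0.103), neither of which was called, though without subcutaneous array 1 the lung against subcutaneous difference was (adjusted p = 0.0275). That difference was also called on a common upper quartile and with a filter on dim genes or an intensity trend (adjusted p 0.00572 to 0.0254). The lung against dish difference was called under quantile normalization, a filter on dim genes, an intensity trend or array weights (adjusted p 0.0139 to 0.0477). Slc2a3, the gene of the high-affinity transporter GLUT3, was in background on all arrays, at 5.95, 5.21 and 4.82 in lung cells and 3.29, 3.74 and 4.31 in subcutaneous cells, and 5.47, 4.28 and 4.69 in dish cells. Its difference of 1.55 between lung and subcutaneous cells was called (adjusted p = 0.0145) but lies below the edge of background on both sides, and the call was lost without subcutaneous array 1 or lung array 1 (adjusted p 0.0555 to 0.0771).

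Hexokinases trap glucose in the cell as glucose 6-phosphate. Hk2, the inducible hexokinase of many tumours, had signals of 12.29, 11.83 and 11.71 in lung cells, 12.01, 13.36 and 12.66 in subcutaneous cells and 11.42, 11.44 and 11.79 in dish cells. All subcutaneous arrays lay above all dish arrays, and the lung arrays overlapped both groups. The difference between subcutaneous and dish cells was 1.12 ± 0.32 (SE), 2.18-fold (adjusted p = 0.0351). The call was lost when any 1 dish array, or subcutaneous array 2 or 3, was left out (adjusted p 0.0566 to 0.131), and with RIN as a covariate the difference was 0.62 (adjusted p = 0.334). Lung cells differed from subcutaneous cells by -0.73 (adjusted p = 0.15), which was called only when subcutaneous array 1 was left out (adjusted p = 0.0387) or on a common upper quartile (adjusted p = 0.0388), among the settings tried. Hk1, the constitutive hexokinase, was above background on lung array 2 only (6.80, 7.36 and 5.26 in lung cells, 4.53, 5.80 and 5.44 in subcutaneous cells, 7.08, 6.16 and 6.34 in dish cells). No Hk1 difference was called as deposited (1.21 for lung minus subcutaneous, adjusted p = 0.112). That difference was called without lung array 3 (1.82, adjusted p = 0.00936), with array weights (adjusted p = 0.028) and with RIN as a covariate (adjusted p = 0.0359), all on signals near background.

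The preparatory steps that follow turn glucose 6-phosphate into a pair of triose phosphates. Phosphofructokinase commits the sugar to glycolysis, and its liver-type subunit gene Pfkl had signals of 10.66, 10.64 and 10.18 in lung cells, 10.03, 10.25 and 9.78 in subcutaneous cells and 11.16, 11.15 and 11.44 in dish cells. Every dish array lay above every array of transplanted cells. The difference from dish cells was -1.23 ± 0.24 (SE) in subcutaneous cells, 2.35-fold lower (adjusted p = 0.00447), and -0.76 in lung cells, which was not called (adjusted p = 0.0826) except under quantile normalization, a common upper quartile or a filter on dim genes (adjusted p 0.0183 to 0.0347). The platelet-type subunit gene Pfkp averaged 12.28 ± 0.34 in lung cells, 12.77 ± 0.37 in subcutaneous cells and 12.59 ± 0.11 in dish cells (SD, n = 3 each), with no call (adjusted p 0.241 to 0.731). The muscle-type subunit gene Pfkm lay in background throughout (6.29 to 7.08).

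Aldolase cleaves fructose 1,6-bisphosphate, and triosephosphate isomerase interconverts its products. The main aldolase gene, Aldoa, had signals of 15.21, 15.63 and 15.24 in lung cells, 16.20, 16.19 and 15.75 in subcutaneous cells and 16.19, 16.12 and 16.15 in dish cells. All 3 lung arrays lay below the other 6. The differences of -0.68 ± 0.24 from subcutaneous cells (adjusted p = 0.0699) and -0.79 ± 0.24 from dish cells (adjusted p = 0.0641) were not called, but both were on a common upper quartile and with a filter on dim genes, an intensity trend or array weights (adjusted p 0.00764 to 0.0383). Tpi1, the isomerase gene, had signals of 15.48, 15.50 and 15.30 in lung cells, 14.99, 15.49 and 14.97 in subcutaneous cells and 16.62, 16.27 and 16.54 in dish cells. It was lower at both transplant sites than in the dish, with no overlap, while the lung and subcutaneous arrays overlapped. The difference from dish cells was -1.05 ± 0.24 in lung cells, 2.07-fold lower (adjusted p = 0.0198), and -1.33 ± 0.24 in subcutaneous cells, 2.51-fold lower (adjusted p = 0.00243). The lung call was lost without dish array 1 or 3, or without lung array 1 or 2 (adjusted p 0.0528 to 0.0683). Aldoc, the brain-type aldolase gene, was in background (3.89 to 4.99).

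The payoff steps make ATP and NADH. Gapdh, whose enzyme oxidises glyceraldehyde 3-phosphate and which is often taken as a constant reference gene, had signals of 16.28, 16.15 and 16.00 in lung cells, 16.70, 16.98 and 16.76 in subcutaneous cells and 17.07, 16.88 and 16.88 in dish cells. All lung arrays were lower than the other 6. The difference from dish cells was -0.80 ± 0.22 (SE), 1.74-fold lower (adjusted p = 0.0463), and from subcutaneous cells -0.67 ± 0.22, not called (adjusted p = 0.0592; called on a common upper quartile and with a filter on dim genes or an intensity trend, 0.00307 to 0.021). The call against the dish was lost without any 1 of the dish or lung arrays or without subcutaneous array 1 (adjusted p 0.0522 to 0.12), and also with RIN as a covariate (adjusted p = 0.0705). It was lost with the replicate block too (adjusted p = 0.0678), although the replicate numbers did not pair the arrays. Mouse Gapdh, Ldha and Aldoa have many processed pseudogenes, and probes may read near-identical copies, so the source of such signals is uncertain.

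Pgk1, the gene of phosphoglycerate kinase, the first ATP-making enzyme of glycolysis, had signals of 11.61, 11.25 and 11.74 in lung cells, 12.31, 13.24 and 12.99 in subcutaneous cells and 13.29, 13.05 and 12.54 in dish cells. The lung arrays lay below the other 6, which overlapped among themselves. Lung cells were lower than subcutaneous cells by a difference of -1.31 ± 0.30 (SE), or 2.48-fold (adjusted p = 0.0104), and this call held when any 1 array was left out. They were lower than dish cells by a difference of -1.43 ± 0.30, or 2.69-fold (adjusted p = 0.0125), a call lost without dish array 2 or lung array 2 (adjusted p 0.0539 to 0.0604).

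Pgam1, the gene of phosphoglycerate mutase, had signals of 15.68, 15.48 and 15.37 in lung cells, 15.69, 16.13 and 15.86 in subcutaneous cells and 16.47, 16.33 and 16.18 in dish cells. The groups formed a ladder without overlap, lung lowest and dish highest, but no difference was called; lung minus dish was -0.82 ± 0.23 (SE, adjusted p = 0.0502), and it was called under the same 4 alternatives as Aldoa (adjusted p 0.00433 to 0.0256). Eno3, the muscle-type enolase gene, had signals of 7.88, 7.27 and 7.81 in lung cells, 6.37, 7.16 and 6.68 in subcutaneous cells and 8.10, 8.09 and 7.63 in dish cells. It was not well above background on any subcutaneous array. Measured differences were 0.92 ± 0.28 for lung minus subcutaneous (adjusted p = 0.0423) and -1.20 ± 0.28 for subcutaneous minus dish (adjusted p = 0.0118). With subcutaneous arrays set to the edge of background, these become at least 0.14 higher in lung cells and at least 0.43 higher in dish cells. The lung call was lost in 6 of the 9 fits that left out 1 array (dish 1 or 2, subcutaneous 1 or 3, lung 1 or 3, adjusted p 0.0527 to 0.158). It was also lost under quantile normalization (adjusted p = 0.144), a common upper quartile (0.136) and an intensity trend (0.0541). The same held for a fit on only the groups compared (0.068) and the replicate block (0.0616). The dish call was lost without dish array 2 (adjusted p = 0.0535). The neuronal enolase gene Eno2 was in background (2.96 to 3.66).

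Pyruvate kinase closes glycolysis. Pkm, its gene in most tumours, had signals of 15.21, 15.39 and 14.88 in lung cells, 14.30, 14.76 and 14.88 in subcutaneous cells and 16.00, 15.40 and 15.33 in dish cells. The subcutaneous arrays lay below the dish arrays, and the lung arrays overlapped both groups. Subcutaneous cells were lower than dish cells by a difference of -0.93 ± 0.27 (SE), 1.90-fold (adjusted p = 0.0391). The call was lost without any 1 dish array, without subcutaneous array 1 or 2, or without lung array 1 (adjusted p 0.0516 to 0.141), and with the replicate block (adjusted p = 0.0581). The M1 and M2 splice forms of this gene were not separated by the feature used.

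Lactate dehydrogenase A regenerates NAD+ by reducing pyruvate. Ldha had signals of 13.23, 12.68 and 13.42 in lung cells, 14.02, 14.13 and 13.94 in subcutaneous cells and 14.77, 14.83 and 14.44 in dish cells. The groups were ordered lung, subcutaneous, dish without overlap. Lung cells were lower than dish cells by a difference of -1.57 ± 0.25 (SE), 2.98-fold (adjusted p = 0.00317), which held when any 1 array was left out. They were lower than subcutaneous cells by a difference of -0.92 ± 0.25, 1.90-fold (adjusted p = 0.0267), lost without any 1 subcutaneous array or without lung array 1 or 2 (adjusted p 0.0503 to 0.117). Subcutaneous minus dish was -0.65 ± 0.25, not called (adjusted p = 0.117; 0.0489 with an intensity trend). Ldhb, the other dehydrogenase subunit gene, was in background (3.53 to 4.49).

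Lactate leaves or enters the cell through monocarboxylate transporters. Slc16a1, the gene of MCT1, had signals of 9.78, 10.14 and 9.995 in lung cells, 10.74, 10.29 and 10.47 in subcutaneous cells and 10.21, 10.22 and 10.36 in dish cells. All lung arrays were lower than the other 6, but the differences of -0.53 from subcutaneous cells (adjusted p = 0.141) and -0.30 from dish cells (adjusted p = 0.49) were not called. The difference from subcutaneous cells was called under quantile normalization (-0.78, adjusted p = 0.0443) and on a common upper quartile (-0.84, adjusted p = 0.0356). Slc16a3, the gene of the lactate exporter MCT4, had 9.87, 8.79 and 8.55 in lung cells, 9.75, 10.35 and 9.70 in subcutaneous cells and 10.0004, 9.73 and 9.22 in dish cells. Lung array 1 stood above the other lung arrays for this gene. Lung minus subcutaneous was -0.86 (adjusted p = 0.122) with all arrays and -1.26 (adjusted p = 0.0356) without lung array 1, and it was called under the same scalings as Slc16a1 (adjusted p 0.0374 and 0.0244). All 4 genes of the lactate group had negative differences in both lung comparisons, but Ldhb was in background on all arrays. The medians over all genes were also negative (-0.07 in both). Only Ldha of the 4 was called with the values as deposited.

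Phosphoglucomutase links glycolysis to glycogen by moving a phosphate between the ends of glucose. Pgm1, the gene that older mouse annotation called Pgm2, had signals of 8.95, 9.20 and 9.08 in lung cells, 10.48, 11.07 and 10.42 in subcutaneous cells and 10.82, 10.53 and 10.93 in dish cells. Lung arrays lay more than a log2 unit below every other array, and the subcutaneous and dish arrays overlapped. Lung cells were lower than subcutaneous cells by a difference of -1.58 ± 0.25 (SE), 3.00-fold (adjusted p = 0.00136), and lower than dish cells by -1.68 ± 0.25, 3.21-fold (adjusted p = 0.00202). Both calls held in every fit that left out 1 array. Subcutaneous minus dish was -0.10 (adjusted p = 0.858). Pgm2, whose enzyme acts mainly on pentose phosphates, averaged 10.11 ± 0.32 in lung cells, 9.99 ± 0.12 in subcutaneous cells and 9.42 ± 0.39 in dish cells (SD, n = 3 each), with no call. Fbp1, a gluconeogenic phosphatase that opposes phosphofructokinase, was in background (3.72 to 4.94).

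The oxidative arm of the pentose phosphate pathway differed between the transplant sites in both members measured, in opposite directions. Pgd, the gene of 6-phosphogluconate dehydrogenase, an NADPH-making enzyme, had signals of 9.98, 10.21 and 10.48 in lung cells, 9.49, 8.24 and 8.79 in subcutaneous cells and 9.91, 9.39 and 9.78 in dish cells. Lung arrays lay above all other arrays. Lung cells exceeded subcutaneous cells by 1.38 ± 0.31 (SE), 2.60-fold (adjusted p = 0.0104), a call kept when any 1 array was left out, and lung minus dish was 0.53 (adjusted p = 0.351). Subcutaneous minus dish was -0.85 (adjusted p = 0.0978), or -1.18 (adjusted p = 0.0223) without subcutaneous array 1. Pgls, the gene of 6-phosphogluconolactonase, the step just before, had signals of 7.56, 7.86 and 8.53 in lung cells, 8.64, 9.14 and 9.32 in subcutaneous cells and 8.41, 8.15 and 8.28 in dish cells. Subcutaneous arrays lay above all others. Lung minus subcutaneous was -1.05 ± 0.29, 2.07-fold lower (adjusted p = 0.0276), lost without subcutaneous array 2 or 3 or lung array 1 or 2 (adjusted p 0.074 to 0.131) and with RIN as a covariate (adjusted p = 0.0522).

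In the non-oxidative arm, Taldo1, the gene of transaldolase, had signals of 11.79, 11.41 and 12.36 in lung cells, 11.07, 10.65 and 10.77 in subcutaneous cells and 11.84, 11.32 and 11.11 in dish cells. The subcutaneous arrays lay below all others. Lung cells exceeded subcutaneous cells by 1.02 ± 0.29 (SE), 2.03-fold (adjusted p = 0.0335). The call was lost without subcutaneous array 2 or 3 or lung array 1 or 3 (adjusted p 0.0833 to 0.105), and under quantile normalization (adjusted p = 0.0638), a common upper quartile (adjusted p = 0.0988) or RIN as a covariate (adjusted p = 0.0606). Rpe, the gene of ribulose phosphate epimerase, averaged 8.67 ± 0.38 in lung cells, 8.75 ± 0.33 in subcutaneous cells and 9.13 ± 0.17 in dish cells (SD, n = 3 each) and was not called. Rpia, the ribose 5-phosphate isomerase gene, was above background on lung array 1 only (5.62 to 7.21 over the 9 arrays). Across the 5 pentose phosphate genes measured, 2 were called higher and 1 lower in lung against subcutaneous cells, beside 9.21% and 5.79% of all genes. In either comparison with the dish 0 were called, and all 5 adjusted p-values were at or above 0.0978. Of all genes, 6.78% were called in lung against dish cells and 12.9% in subcutaneous against dish cells. With only 5 genes, such counts cannot be told from these shares.

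**Figure D4:**
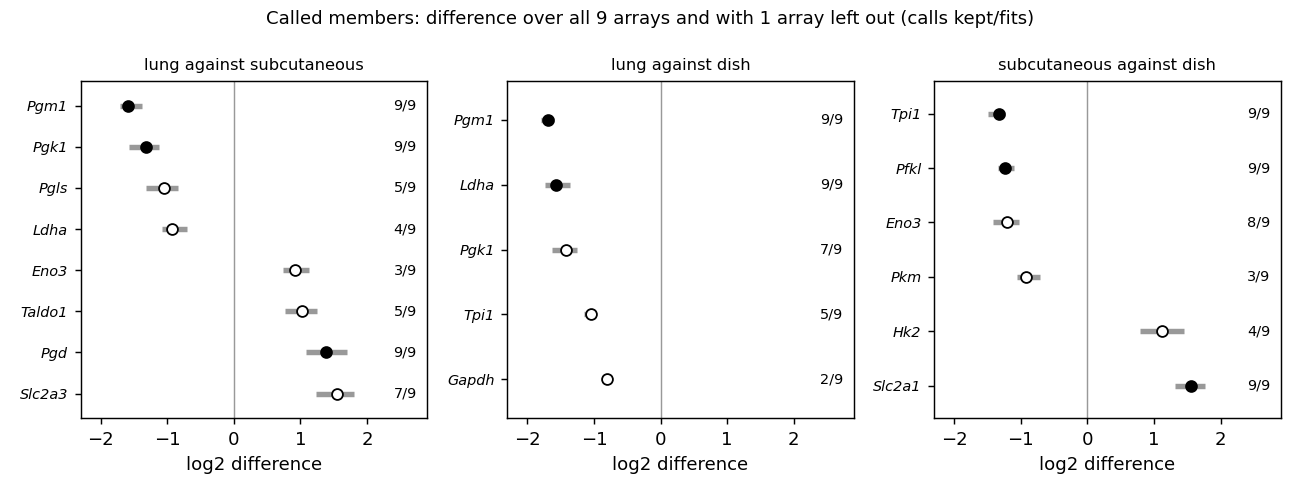
Each of the 19 calls on members (points, log2 difference with all 9 arrays) with the range of the difference when 1 array at a time was left out (grey bars); the numbers give the fits in which the call held, and filled points held in all 9. The 8 filled points are Ldha and Pgm1 in lung minus dish, Pgm1, Pgk1 and Pgd in lung minus subcutaneous, and Slc2a1, Pfkl and Tpi1 in subcutaneous minus dish, and 0 of the 19 changed sign.

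Genes around these pathways were read from a list of 78, of which 71 had a feature. It covers other isoforms, feed-in enzymes and regulators, the fate of pyruvate, glycogen metabolism and upstream factors. In lung against subcutaneous cells, 10 of the 71 were called higher and 5 lower, beside 9.21% and 5.79% of all genes. In lung against dish cells the counts were 3 and 1, beside 4.81% and 1.97% of all genes, and in subcutaneous against dish cells 6 and 10, beside 6.41% and 6.47%. These counts include genes in background on all arrays. They are Epas1 and Pcx (higher) and Tktl2 (lower) in lung against subcutaneous cells, and Epas1 (higher) in lung against dish cells. In subcutaneous against dish cells they are Pdp2 (higher) and Pcx (lower). Their median differences were -0.06, -0.09 and -0.13 in the same order, against -0.07, -0.07 and -0.01 over all genes.

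Gpd2, the gene of the mitochondrial glycerol 3-phosphate dehydrogenase that passes cytosolic NADH electrons to the respiratory chain, differed between subcutaneous cells and both other groups. It had signals of 11.42, 11.98 and 12.50 in lung cells, 14.11, 14.47 and 14.35 in subcutaneous cells and 11.19, 11.60 and 11.39 in dish cells. Subcutaneous arrays lay above all others. Lung minus subcutaneous was -2.34, 5.06-fold lower (adjusted p = 0.000303), and subcutaneous minus dish was 2.91, 7.52-fold higher (adjusted p = 3.28e-05). Got2, the mitochondrial aspartate aminotransferase gene of the malate-aspartate shuttle, went the other way, at 15.98, 15.96 and 15.58 in lung cells, 14.85, 14.46 and 14.19 in subcutaneous cells and 16.44, 16.01 and 16.06 in dish cells. Its differences were 1.34 for lung minus subcutaneous (adjusted p = 0.00398) and -1.67 for subcutaneous minus dish (adjusted p = 0.000808). Dlat, the gene of the E2 subunit of pyruvate dehydrogenase, was likewise lowest in subcutaneous cells, with 10.43, 10.79 and 10.61 in lung cells, 9.02, 9.41 and 8.68 in subcutaneous cells and 10.09, 10.16 and 10.30 in dish cells. For Dlat, lung minus subcutaneous was 1.58 (adjusted p = 0.00134) and subcutaneous minus dish was -1.15 (adjusted p = 0.00769). All 6 calls on these 3 genes held in every fit that left out 1 array.

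Fbp2, the muscle-type fructose bisphosphatase gene, was highest in lung cells, with signals of 9.57, 10.20 and 9.74 there, 7.09, 7.60 and 6.65 in subcutaneous cells and 8.23, 8.11 and 6.67 in dish cells. It was above background on 1 of 3 subcutaneous arrays and 2 of 3 dish arrays. Lung cells exceeded subcutaneous cells by 2.73 (adjusted p = 0.000831) and dish cells by 2.17 (adjusted p = 0.00613). Pgp, the gene of a phosphatase that clears 2-phosphoglycolate and other side products of glycolysis, had 14.59, 14.67 and 14.64 in lung cells, 13.51, 13.47 and 12.81 in subcutaneous cells and 14.79, 14.44 and 14.58 in dish cells, and subcutaneous arrays were below all others. Its differences were 1.37 for lung minus subcutaneous (adjusted p = 0.00313) and -1.34 for subcutaneous minus dish (adjusted p = 0.00309). Rbks, the ribokinase gene, had 9.31, 9.26 and 8.94 in lung cells, 9.003, 8.30 and 8.19 in subcutaneous cells and 7.71, 7.86 and 7.12 in dish cells, and dish arrays were below all others. Lung minus dish was 1.60 (adjusted p = 0.00588). Tigar, the gene of a fructose bisphosphatase that favours the pentose phosphate pathway, was above background on all lung arrays (7.82, 7.50 and 7.62) and on no subcutaneous array (5.58, 5.25 and 6.41), with 7.46, 6.59 and 7.61 in dish cells. Lung minus subcutaneous was 1.90 (adjusted p = 0.00262), at least 0.14 when taken from the edge of background. These 6 calls held when any 1 array was left out. Subcutaneous minus dish was also called for Rbks (0.93, adjusted p = 0.0488) and Tigar (-1.47, adjusted p = 0.0109). The Rbks call was lost in 7 of the 9 such fits (all but those without subcutaneous array 3 or lung array 3; adjusted p 0.0626 to 0.182), and the Tigar call without dish array 3 or subcutaneous array 2 (adjusted p 0.0506 to 0.0544) and with RIN as a covariate (adjusted p = 0.0661).

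A further 5 neighbours were called in subcutaneous against dish cells, Bsg in lung against dish cells too. Bsg, which encodes basigin, the chaperone of the lactate transporters, had signals of 17.30, 17.35 and 15.98 in lung cells, 17.19, 17.14 and 16.86 in subcutaneous cells and 18.60, 18.24 and 17.87 in dish cells, and dish arrays lay above all others. Its differences from dish cells were -1.36 in lung cells (adjusted p = 0.0347) and -1.17 in subcutaneous cells (adjusted p = 0.0425). The lung call was lost without any 1 dish array or lung array 1 or 3 (adjusted p 0.0507 to 0.112), and the subcutaneous call without any 1 dish or subcutaneous array (adjusted p 0.0516 to 0.142). With RIN as a covariate neither was called (adjusted p 0.0749 and 0.143). Prps1, which makes the ribose donor for nucleotide synthesis, and Got1, the cytosolic partner of Got2, differed from dish cells by -0.89 (adjusted p = 0.0245) and -0.99 (adjusted p = 0.0282) in subcutaneous cells. Ugp2, which makes UDP-glucose for glycogen, and Arnt, the constant partner of HIF-1 alpha, differed there by 1.09 (adjusted p = 0.0162) and 0.92 (adjusted p = 0.0476). Arnt lay near background in this comparison, above it on 2 of 3 subcutaneous arrays and 1 of 3 dish arrays. Each of these 4 calls was lost when some single arrays were left out: dish 1 or 2 and subcutaneous 2 or 3 for Prps1 (adjusted p 0.0667 to 0.0846), dish 1 or 2 and subcutaneous 1 or 2 for Got1 (0.0606 to 0.115), dish 2 or 3 and subcutaneous 2 for Ugp2 (0.0536 to 0.067), and any array but subcutaneous 3 for Arnt (0.052 to 0.15). All 4 were also lost with RIN as a covariate (adjusted p 0.103 to 0.165).

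Pyruvate dehydrogenase is switched off by kinases and on by phosphatases. The kinase gene Pdk1, a known HIF-1 target, had signals of 7.76, 7.36 and 8.11 in lung cells, 8.82, 9.69 and 8.74 in subcutaneous cells and 9.01, 9.08 and 8.02 in dish cells. Lung minus subcutaneous was -1.34 (adjusted p = 0.0213), lost without subcutaneous array 2 or lung array 1 or 2 (adjusted p 0.0676 to 0.0869). The phosphatase gene Pdp1 had 8.06, 8.42 and 9.22 in lung cells, 9.65, 10.50 and 10.30 in subcutaneous cells and 9.04, 8.82 and 7.71 in dish cells, and subcutaneous arrays lay above all others. Lung minus subcutaneous was -1.58 (adjusted p = 0.0156), lost without subcutaneous array 2 or 3 or lung array 1 or 2 (adjusted p 0.0514 to 0.0794), and subcutaneous minus dish was 1.63 (adjusted p = 0.0138), lost without dish array 3 or subcutaneous array 2 (adjusted p 0.0594 to 0.0628) and with RIN as a covariate (adjusted p = 0.123). Pdk1 and Pdp1, whose enzymes oppose each other, were thus both called lower in lung than in subcutaneous cells. This does not hold for all the kinase genes. Pdk3 was above background on all 9 arrays, and its lung minus subcutaneous difference was 0.75, not called (adjusted p = 0.0867). The kinase genes Pdk2 and Pdk4 and the phosphatase gene Pdp2 were in background on all arrays.

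Hif1a, the gene of the oxygen-regulated HIF-1 subunit, had signals of 13.94, 14.05 and 14.16 in lung cells, 14.83, 14.93 and 14.62 in subcutaneous cells and 14.23, 13.95 and 14.28 in dish cells, with subcutaneous arrays above all others. HIF-1 alpha is controlled mainly at the protein level, which these arrays do not read. The difference between lung and subcutaneous cells was -0.75 (adjusted p = 0.0407), lost without dish array 2 or any 1 lung or subcutaneous array (adjusted p 0.051 to 0.145) and with RIN as a covariate (adjusted p = 0.0637) or the replicate block (adjusted p = 0.0633). Of 16 hypoxia-responsive genes outside the members, among them Bnip3, Egln3 and Pdk1, 0 were called higher and 9 lower in lung against subcutaneous cells (median -1.21), beside 9.21% and 5.79% of all genes. The counts were 0 and 4 in lung against dish cells (median -0.47), beside 4.81% and 1.97%, and 5 and 2 in subcutaneous against dish cells (median 0.68), beside 6.41% and 6.47%. Car9, among the 9 lower calls, was in background on all arrays. Pdk1, Pfkfb3 and Pfkfb4 are also on the list of neighbouring genes above. Among the glycolysis and pentose phosphate members, Slc2a1 and Hk2 were called higher in subcutaneous than in dish cells, while Pgk1, Ldha and Pgm1, which also hold ACGTG, had differences of -0.11, -0.65 and -0.10 there and were not called.

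**Figure D5:**
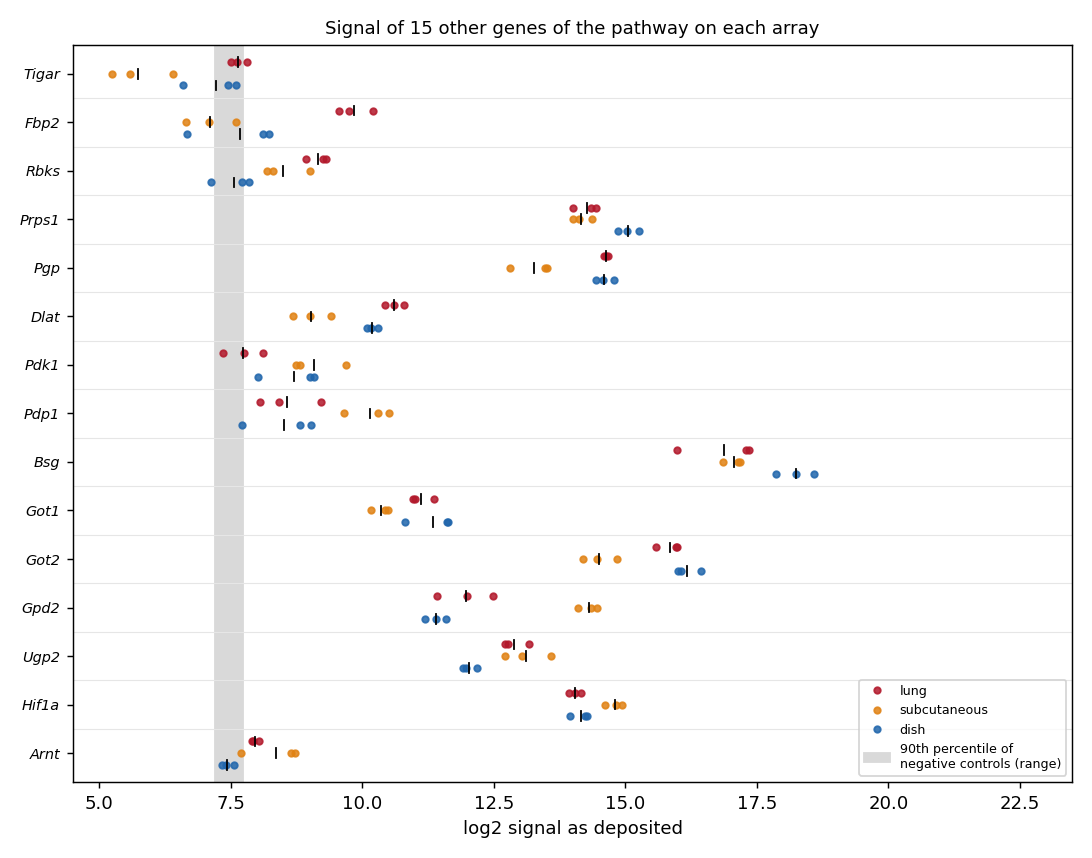
Log2 signal (x axis) of 15 neighbouring pathway genes on each of the 9 arrays. For each gene, lung cells are in the top row, subcutaneous cells in the middle and dish cells at the bottom. Black ticks are group means (n = 3). Gpd2 lay between 14.11 and 14.47 in subcutaneous cells, above all 6 other arrays, and Got2, Dlat and Pgp were lowest there.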

How the data were processed

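The values are log2 signals that the authors deposited as 1 table of 28846 features for 9 biotin-labelled whole-transcript arrays, used as deposited. Their normalization, the software and the build were not given in the sources used here. The platform annotation gave 19572 features a single symbol; for 55 genes with several features the one with the highest mean was kept, leaving 19505 genes, with no filter on level. The 90th percentile of the negative controls on each array stood for background, since the table holds no detection call. Groups and replicate numbers came from the sample titles. One model with 3 group means was fitted over all genes with limma 3.58.1 in R 4.3.3 (lmFit, eBayes; 6 residual and 7.08 prior degrees of freedom), two-sided, with Benjamini-Hochberg adjustment over all genes and a threshold of 0.05; the procedure was tested on simulated data. The number of arrays limits the precision.

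All 32 members are named or accounted for. Array values are given for members called in any comparison, and neighbouring genes are named where they were called and above background on all arrays of at least 1 of the 3 groups. The members and all lists were chosen with earlier results of these data known. Where a gene was in background on all arrays of a group, a difference given as at least so much sets those arrays to the edge of background. Promoter windows come from RefSeq (GRCm38.p6); their matches are a description and were not tested. Alternatives were other scalings, a filter on dim genes, an intensity trend, array weights, RIN as a covariate, a fit on only the groups compared, the mean of several features, the replicate number as a block, and leaving out each array.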

Additional observations from a re-analysis of the deposited data

Results flagged for a closer look

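Relative to the dish, 8 members differed between the transplant sites, tested directly as lung minus subcutaneous cells in limma with adjusted p under 0.05. The effects at both sites share the 3 dish arrays, which cancel in this difference. Lung cells were lower for Pgm1 (-1.58), Pgk1 (-1.31), Pgls (-1.05) and Ldha (-0.92), all log2 differences. They were higher for Slc2a3 (1.55, in background on all arrays), Pgd (1.38), Taldo1 (1.02) and Eno3 (0.92, in background in subcutaneous cells). The calls on Pgm1, Pgk1 and Pgd held when any 1 array was left out, while the other 5 were each lost without at least 1 array.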

How the results depend on the processing

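Of the 19 calls on members, 8 held in every fit, 8 held when any 1 array was left out and 13 held under every one of the 9 other settings that tested them (Slc2a3 was removed by the filter on dim genes); 0 called differences of members or neighbouring genes changed sign. On a common upper quartile the median of all genes moved to -0.38 in lung against subcutaneous and -0.41 in lung against dish cells, and the share of calls that were higher to 27.7% and 24% of all calls, against 61.4% and 71% as deposited. Under it, members lower in lung were 10 in both comparisons, beside 2936 and 1787 of the 19505 genes. Members higher against subcutaneous cells were 2, beside 1124 genes, and the members' medians were -0.53 and -0.64. Quantile normalization gave 2 members higher against subcutaneous cells, beside 1454 genes, and 1 higher against dish cells (Slc2a1), beside 667 genes. It gave a median of -0.50 in lung against dish cells, and shares of 54.8% higher there. A filter on dim genes gave 7 members lower against subcutaneous and 8 lower against dish cells, beside 889 and 419 genes. It gave 1 member higher against dish cells, beside 1111 genes, and medians of -0.51 and -0.43. An intensity trend gave 7 lower against subcutaneous and 1 higher against dish cells, beside 1225 and 1037 genes. Array weights gave 2 higher against dish cells, beside 1934 genes. RIN as a covariate gave a median of -0.47 in lung against dish cells. It gave 1 member higher in subcutaneous against dish cells, beside 674 genes. A fit on only the 2 groups compared also gave 1 higher there, beside 1176 genes. Leaving out 1 array gave, in lung against subcutaneous cells, 2 to 5 members lower and 1 to 4 higher, with medians of -0.31 to -0.15. Over all genes, 526 to 1063 were lower and 950 to 1927 higher there. In lung against dish cells, 2 to 5 were lower and 0 higher, with medians of -0.38 to -0.29, beside 124 to 423 and 390 to 1122 genes. In subcutaneous against dish cells, 2 to 5 were lower and 1 to 2 higher, with medians of -0.32 to -0.21, beside 809 to 1381 and 830 to 1357 genes. Calls over all genes moved most in lung against dish cells, with 1322 as deposited, 2352 on a common upper quartile, 3039 with array weights, 856 with RIN, 514 and 667 without dish array 2 or 3 and 591 and 765 without lung array 1 or 2. In lung against subcutaneous cells they were 2927, and 1476 and 1938 without lung array 1 or 2; in subcutaneous against dish cells 2513, 1280 with RIN and 1639 without dish array 2. With the replicate number as a block, 2852, 1313 and 2475 genes were called, with members 4 lower and 3 higher, 4 lower and 0 higher, and 3 lower and 2 higher in the 3 comparisons in that order. The block ended the calls on Eno3 (lung against subcutaneous), Gapdh, Pkm, Hif1a and Arnt. Deviations of same-numbered arrays correlated at -0.06 to 0.09, so the numbers were not read as pairs. The cause of these shifts was not tested.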
